A study of Mus musculus with 6 samples.

Results

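The elastic fibre and lysyl oxidase genes described here are 10 genes out of the 55536 listed in each library. They were chosen by name, with no measured value in the rule, though earlier results of these data were known. The genes were found by Ensembl identifier with GENCODE M21 names. They are the elastin gene Eln, the microfibril gene Fbn1, the fibulin genes Fbln2 and Fbln5, the interface gene Emilin1, and the lysyl oxidase genes Lox, Loxl1, Loxl2, Loxl3 and Loxl4. RNA was sequenced from the immortalised mouse line SVEC4-10, whose labels call it endothelial, grown in medium with serum. The control group was 3 untreated samples and the other group was 3 samples given nattokinase, a fibrin-degrading serine protease of fermented soybeans, for 24 hours. The sources used here do not give the dose of nattokinase, nor whether the replicates were separate cultures. The p-values set the difference between groups against the scatter among these samples only, and that scatter may therefore be technical.

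Elastic fibres give arteries, lung and skin their recoil. A core of cross-linked elastin lies on a scaffold of microfibrils built from fibrillin, and fibulins and emilins help to join the core to the scaffold. Lysyl oxidases are copper-dependent enzymes outside the cell that oxidise lysines in elastin and in fibrillar collagens, which is the step that starts cross-linking. In the vessel wall smooth muscle cells and fibroblasts are known as the main makers of this matrix, and endothelial cells also contribute.

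The 6 libraries held between 15044778 and 18341370 reads assigned to genes, and the 10 genes together took 0.456% to 0.483% of them. Protein-coding genes took 95.99% ± 0.66 of reads in untreated cells and 98.35% ± 0.044 after nattokinase (SD, n = 3 each). Control replicate 1 stood apart from the other libraries on the second principal component, which carried 20.3% of the variance. The label of an endothelial line was checked against 12 endothelial markers, of which 0 reached 1 FPKM (fragments or reads per kilobase of exon, scaled to the reads assigned in a library) in 3 libraries. Their summed level was 1.28 to 2.09 FPKM in untreated cells and 1.53 to 1.69 after nattokinase. Pecam1 had 0 to 3 reads per library, Cdh5 had 0 or 1, and Tie1, Erg, Cldn5 and Emcn had 0 in all 6. Vwf had 0 to 2 and Tek 0 to 7. The rest had more reads, at 25 to 37 for Eng, 17 to 34 for Egfl7, 11 to 24 for Sox18 and 9 to 22 for Kdr. Of 11 fibroblast and mural cell markers 6 reached 1 FPKM in 3 libraries, and the list summed to 2068 to 2215 FPKM in untreated cells and 1849 to 1921 after nattokinase. Collagens led this sum, with control means of 1403 FPKM for Col1a1 and 524 for Col1a2. Col3a1 fell from 144 ± 2.62 to 95.8 ± 1.14 FPKM (SD, n = 3 each, limma adjusted p = 7.7e-05), and the other 5 tested were not called. Thy1 had no read, and Rgs5 and Cspg4 had at most 3 per library. The 6 smooth muscle markers summed to 462 to 503 FPKM in untreated cells and 924 to 951 after nattokinase, nearly all of it Acta2. Of 3 tested, Acta2 and Tagln rose and Smtn was not called (limma adjusted p = 0.064). Most exon bases of Tagln are shared with the gene Gm48529 on the other strand, and strand use in counting is not stated. The rise of Tagln is therefore less certain than that of Acta2. Among the 3 not tested, Cnn1 was higher in every nattokinase library, at 0.286 ± 0.0898 and 1.06 ± 0.106 FPKM (SD, n = 3 each), Myh11 overlapped between the groups, and Des was at 0.376 ± 0.111 and 0.385 ± 0.0628 FPKM (SD, n = 3 each). Of 4 lymphatic markers Prox1 and Lyve1 had no read, and the list, led by Pdpn, summed to 125 to 136 FPKM in untreated cells and 109.7 to 115 after nattokinase. Pdpn fell, with a log2 fold change of −0.22 (limma adjusted p = 0.027). Flt4 was at 10.6 to 11.8 FPKM and was not called (limma adjusted p = 0.54). Of the leukocyte markers 4 of 5 had no read in any library, and Cd68 rose from 1.19 ± 0.326 to 2.42 ± 0.348 FPKM (limma adjusted p = 0.0094). Among those with no read, Itgam shares most of its exon bases with Gm49368. How reads in these shared bases were counted is not known. The 4 epithelial markers summed to between 4.34 and 5.57 FPKM. In these bulk samples, fewer cells of a type and less RNA per cell cannot be told apart.

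Promoter windows from RefSeq (GRCm38.p6), the 250 bases before each start, matched 5 of the 10 genes. These were Fbn1, Emilin1, Fbln2, Fbln5 with 2 starts, and Loxl4. RefSeq's starts differ from those of GENCODE M21, and the windows of Fbn1, Emilin1 and Fbln2 lay wholly within exons of the GENCODE gene models, so they are not shown or described as promoters. The inner start of Fbln5 also lay within its GENCODE gene. The windows of Loxl4 and of the outer start of Fbln5 lay before the gene in GENCODE, apart from 7 exon bases for Loxl4. Fbln5 was well expressed and Loxl4 below the filter on low values, but levels had no part in the choice of windows. Of the 6 windows only these 2 are shown, because of where they lie. They are written 5′ to 3′ on the strand of the gene, at chr12:101819120-101819369 (minus strand) for Fbln5 and chr19:42612807-42613056 (minus strand) for Loxl4. Capitals mark the GC box GGGCGG or its reverse complement.
Fbln5: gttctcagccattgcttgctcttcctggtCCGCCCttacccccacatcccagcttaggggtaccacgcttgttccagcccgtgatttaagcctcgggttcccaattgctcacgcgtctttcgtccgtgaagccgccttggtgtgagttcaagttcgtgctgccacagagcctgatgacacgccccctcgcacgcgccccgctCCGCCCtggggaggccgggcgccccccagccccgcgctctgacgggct
Loxl4: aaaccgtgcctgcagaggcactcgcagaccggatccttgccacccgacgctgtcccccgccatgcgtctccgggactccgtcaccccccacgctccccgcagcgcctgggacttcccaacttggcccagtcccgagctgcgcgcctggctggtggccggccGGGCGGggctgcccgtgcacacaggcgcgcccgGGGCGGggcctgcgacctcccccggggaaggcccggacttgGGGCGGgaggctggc
The Fbln5 window held 2 GC boxes and the Loxl4 window 3, and 32.7% of all 32851 windows of this length held at least 1 on either strand. The GC content was 65.2% for Fbln5 and 76.0% for Loxl4. The motif TATAAA, held by 12.4% of all windows, was not found in either of them. The same was true of GGAATG, held by 12.6%, of CAGACA, held by 17.1%, of the E-box CACGTG, held by 6.02%, and of the CArG box, held by 1.47%.

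The levels of the 10 genes spanned the whole range from nearly undetected to among the most abundant transcripts of the line. Eln, which encodes the elastin core itself, had 3, 2 and 0 reads without nattokinase, against 0, 1 and 0 with it (chromosome 5, 134702593 to 134747323, GRCm38). A count of 0 allows up to 3 reads, which for Eln is 0.0202 to 0.0246 FPKM, for counting error only. All 6 libraries lay at or under that limit, so a fall of Eln could not be seen at this depth. No nattokinase library showed a rise above the limit, and changes below it could not be seen. By contrast Fbln2 had a mean of 331 ± 16.5 FPKM over the 6 libraries (SD, n = 6), rank 89 among all listed genes. Lox followed at 242 ± 29.1 FPKM and rank 141, and Loxl2 at 82.7 ± 1.01 FPKM and rank 509. Fbln5 at 48.5 ± 1.81 and Fbn1 at 43.8 ± 3.18 FPKM were neighbours whose ranges over libraries overlapped. Below them came Loxl3 at 15.7 ± 0.767, Emilin1 at 3.22 ± 0.411, Loxl4 at 0.653 ± 0.0784 and Loxl1 at 0.311 ± 0.0419 FPKM. Apart from Fbln5 and Fbn1, no neighbours in this order overlapped in any library. Transcripts of microfibril, fibulin and cross-linking proteins were present in cells with almost no elastin transcript.

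**Figure D1:**
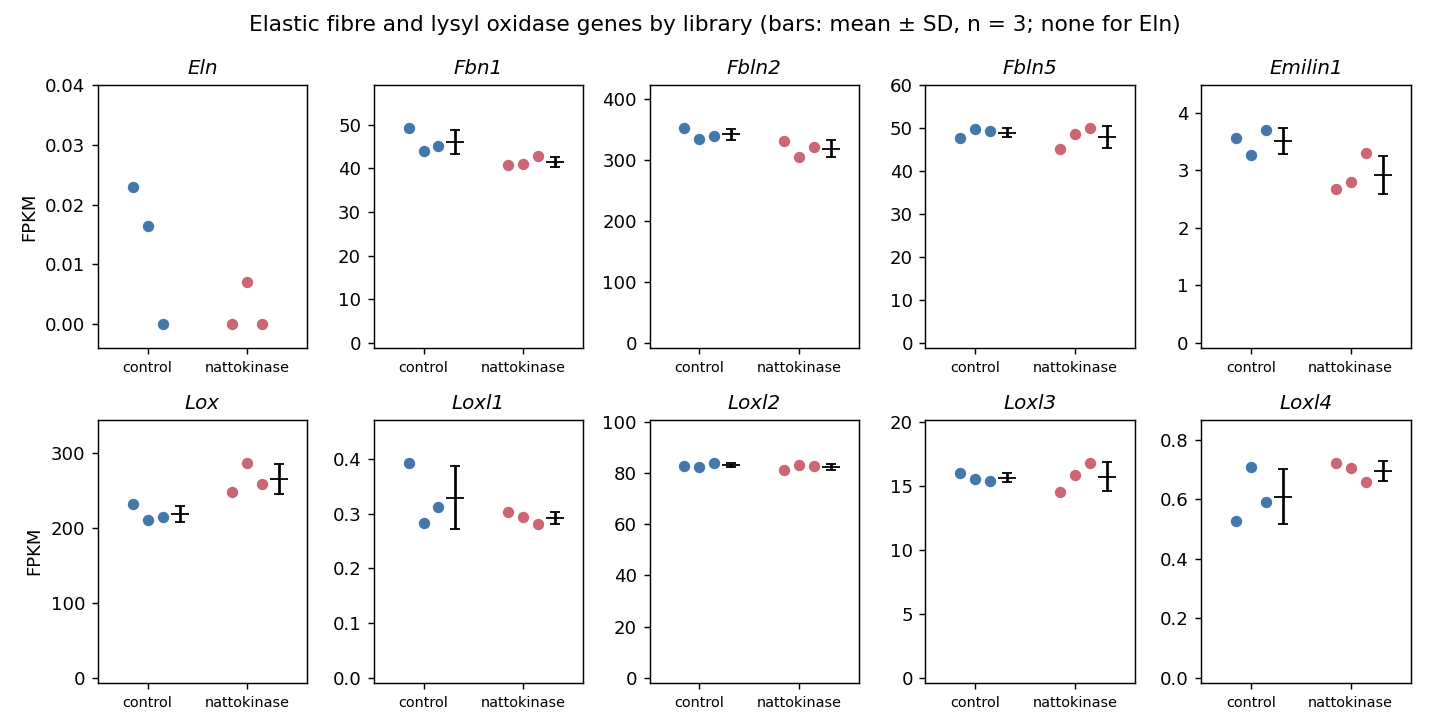
FPKM of the 10 genes in each library, on axes that start near 0, with control libraries in blue and nattokinase libraries in red. Points are libraries 1 to 3 from left to right and bars are the mean ± SD (n = 3), left out for Eln, which had 0 to 3 reads. The 3 nattokinase libraries of Lox lie above the 3 controls, and those of Fbn1 and Fbln2 lie below.

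Of the 10 genes, 7 reached 1 FPKM in at least 3 libraries and were tested with limma on log2(FPKM + 1). With nattokinase 1 of the 7 rose, Lox, and 0 fell, at a Benjamini-Hochberg adjusted p of 0.05 over all 10913 genes tested. Over all tested genes 8.85% were called in either direction, 5.61% as higher and 3.24% as lower, so 1 call among 7 is close to the background. At an unadjusted limma p of 0.05, 2 of the 7 were lower, but the share of all genes at that threshold was not computed, so this count cannot be judged. Limma-voom on recovered reads called 1 of the 7 lower, beside 462 lower among all 10913 genes. The median log2 fold change of the 7 was −0.031, beside 0.012 over all tested genes. The groups did not overlap for 3 of the 7 genes, with Lox above and Fbn1 and Fbln2 below. Among all tested genes 28.8% had groups that did not overlap, 17.4% after nattokinase above and 11.4% with it below. Eln, Loxl1 and Loxl4 did not reach the filter. Emilin1 was the lowest gene above it, at 2.67 to 3.71 FPKM, and Loxl4 the highest below it, at 0.527 to 0.724 FPKM.

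**Figure D2:**
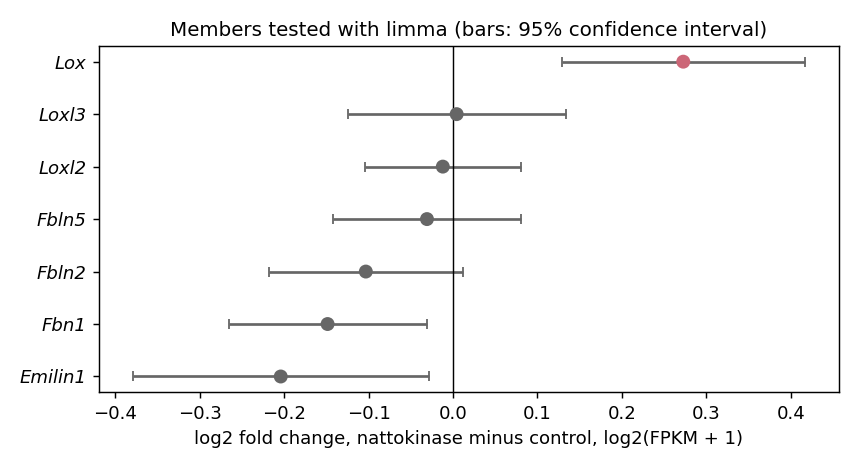
Log2 fold change of the 7 tested genes on the log2(FPKM + 1) scale, nattokinase minus control, with 95% confidence intervals from limma (3 libraries per group). Lox at 0.27 is the filled red point with an adjusted p under 0.05, and the grey points are the 6 genes that were not called.

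Lox, which encodes the founding lysyl oxidase, rose after nattokinase, with a ratio of mean FPKM of 1.21. Its FPKM were 232, 211 and 215 without nattokinase, against 249, 288 and 259.6 with it (chromosome 18, 52516067 to 52529867). All 3 nattokinase libraries were above all 3 controls, and nattokinase replicate 2 was the highest. The mean went from 219 ± 11.1 to 265 ± 20.03 FPKM (SD, n = 3 each). On the log2 scale the change was 0.27 with a standard error of 0.064 and a 95% confidence interval of 0.13 to 0.42 (limma adjusted p = 0.028). Between 15148 and 24079 reads per library stood behind these values. Over the alternatives the log2 fold change ranged from 0.21 to 0.32 and the adjusted p from 0.0014 to 0.14, with the same direction in 14 of 14. The call was lost in 6 of the 14, among them the fits without control replicate 2 (adjusted p = 0.11), control replicate 3 (0.084), nattokinase replicate 2 (0.11) or nattokinase replicate 3 (0.083), and the fit with no filter on low values (0.14). Rescaled to equal protein-coding totals, Lox had a log2 fold change of 0.24 (limma adjusted p = 0.049). The smooth muscle markers Acta2 and Tagln were also higher in the same libraries, with the caution on exon overlap given above for Tagln. The part of these markers in the Lox result was not tested.

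**Figure D3:**
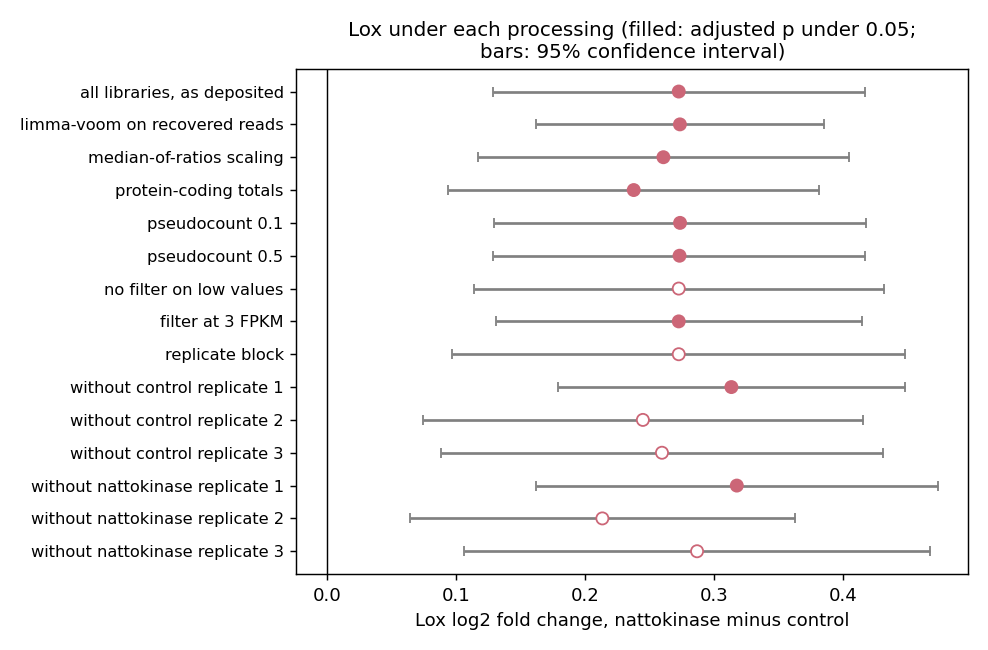
Log2 fold change of Lox, nattokinase minus control, with all libraries as deposited (top) and under each of 14 alternatives, with 95% confidence intervals. Filled points have an adjusted p under 0.05, which held for 8 of the 14 alternatives, and every point lies above 0.

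The other members of the lysyl oxidase family were not called. Loxl2, an enzyme with scavenger receptor repeats that acts on basement membrane collagen IV among other substrates, had 82.6, 82.5 and 84.1 FPKM in untreated cells and 81.0, 83.3 and 82.7 after nattokinase (chromosome 14, 69609068 to 69695834). The groups overlapped, and the log2 fold change was −0.012 with a 95% confidence interval of −0.10 to 0.080 (limma adjusted p = 0.90). Loxl3, a close relative of Loxl2, had 16.04, 15.5 and 15.4 FPKM in untreated cells and 14.5, 15.9 and 16.8 after nattokinase (chromosome 6, 83034173 to 83052562). Its nattokinase libraries lay on both sides of the controls, and the interval of its log2 fold change of 0.0042 was −0.13 to 0.13 (limma adjusted p = 0.98). The Loxl3 value was negative in 6 of 14 alternatives, namely median-of-ratios scaling, protein-coding totals, and 4 of the 6 fits that left out a library, those lacking replicate 2 or 3 of either group. Loxl4 had 36, 45 and 41 reads in untreated cells and 55, 52 and 51 after nattokinase (chromosome 19, 42593982 to 42612813). In FPKM the Loxl4 groups overlapped, at 0.527, 0.710 and 0.590 against 0.724, 0.704 and 0.660. Loxl1, the family member tied most closely to elastin assembly, had only 14 to 21 reads per library (chromosome 9, 58287738 to 58313186). Its level was 0.329 ± 0.0572 FPKM in untreated cells and 0.293 ± 0.0109 after nattokinase (SD, n = 3 each). Without the filter on low values the limma adjusted p was 0.69 for Loxl4, 0.83 for Loxl1 and 0.66 for Eln.

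The level of Lox was also set against those of Loxl2 and Loxl3 within each library. The ratio of Lox to Loxl2 FPKM was 2.81, 2.55 and 2.56 in untreated cells and 3.07, 3.45 and 3.14 after nattokinase. The difference of the log2 ratio between groups was 0.29, with all nattokinase libraries above the controls. The ratio of Lox to Loxl3 was 14.4, 13.6 and 13.9 in untreated cells and 17.1, 18.1 and 15.4 after nattokinase, a difference of 0.27 on the log2 scale. For both ratios the two-sided exact permutation p was 0.10, the smallest that this test allows with 3 libraries against 3, so it could not pass 0.05 here. Per unit of length, Lox made up 68.7% ± 1.07 of the summed lysyl oxidase family level in untreated cells and 72.8% ± 1.21 after nattokinase. Loxl2 made up 26.1% ± 0.993 and 22.6% ± 1.03, and Loxl3 made up 4.92% ± 0.0897 and 4.33% ± 0.306 (SD, n = 3 each). Loxl1 and Loxl4 together contributed less than either of these in every library, with shares of at most 0.119% and 0.229%. The summed level of the family was 331, 309.8 and 315.5 FPKM in untreated cells and 345, 388 and 360.1 after nattokinase.

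**Figure D4:**
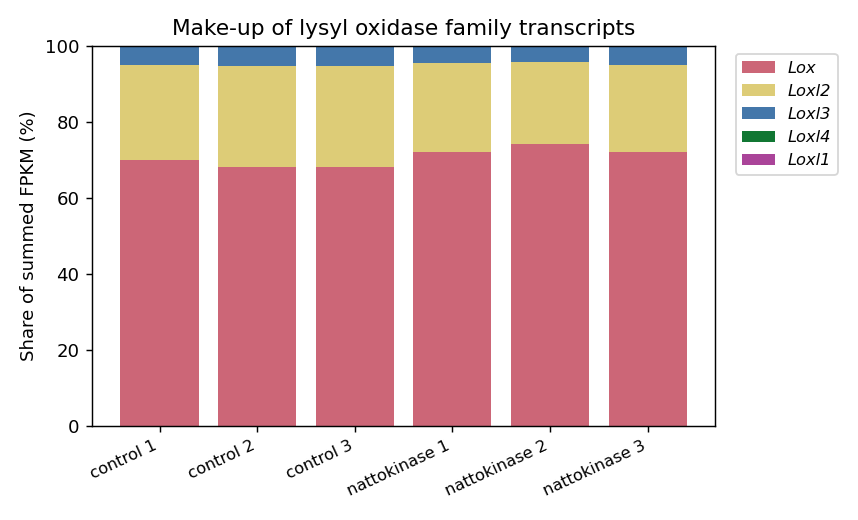
Share of each lysyl oxidase gene in the summed FPKM of the family, per library (stacked bars, 0 to 100%). Lox takes 68.0% to 70.0% in untreated cells and 72.0% to 74.2% after nattokinase, while Loxl4 and Loxl1 are too small to be seen.

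The 4 tested genes of the scaffold, Fbn1, Fbln2, Fbln5 and Emilin1, had lower mean levels after nattokinase, and 0 of the 4 passed the test. Fbn1, which encodes fibrillin-1, the main protein of microfibrils, had 49.3, 44.1 and 45.1 FPKM in untreated cells and 40.7, 40.9 and 42.9 after nattokinase (chromosome 2, 125300594 to 125507993). The groups did not overlap, and the highest value was in control replicate 1. The log2 fold change was −0.15 with a standard error of 0.052 and an interval of −0.27 to −0.031 (limma adjusted p = 0.12). Without control replicate 1 it was −0.10 (adjusted p = 0.16), and limma-voom on the recovered reads gave −0.15 with an adjusted p of 0.049. Antisense to Fbn1, Gm9913 covers 2442 (20.1%) of its 12128 exon bases. Gm9913, with 2793 exon bases, was assigned 0 or 1 read per library. As strand use is not stated, this cannot show how reads in the shared bases were counted.

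Fbln2, which encodes fibulin-2, a partner of fibrillin-1 and of basement membrane proteins, was the most abundant of the 10 genes. It had 353, 335.5 and 339.7 FPKM in untreated cells and 331, 304.5 and 322 after nattokinase (chromosome 6, 91212455 to 91272540). All nattokinase libraries were below all controls, nattokinase replicate 1 being the nearest to them. The mean went from 343 ± 9.11 to 319 ± 13.4 FPKM, and the log2 fold change of −0.10 had an interval of −0.22 to 0.012 (limma adjusted p = 0.27). Fbln5, whose product tethers elastin to cells and is needed for elastic fibre formation, had 47.8, 49.7 and 49.5 FPKM in untreated cells and 45.2, 48.7 and 50.1 after nattokinase (chromosome 12, 101746565 to 101819055). Its groups overlapped, and the interval of its log2 fold change of −0.031 was −0.14 to 0.080 (limma adjusted p = 0.77). That value turned positive, 0.011, without nattokinase replicate 1.

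Emilin1 encodes a glycoprotein at the border between elastin and microfibrils. It had 3.56, 3.27 and 3.71 FPKM in untreated cells and 2.67, 2.80 and 3.30 after nattokinase (chromosome 5, 30913402 to 30921277). Nattokinase replicate 3 lay just above control replicate 2, so the groups overlapped. The log2 fold change was −0.20 with a standard error of 0.078 and an interval of −0.38 to −0.029 (limma adjusted p = 0.15). Only 238 to 302 reads per library stood behind it. Emilin1 is a low gene, and its ratio of mean FPKM was 0.83. Its log2 fold change was −0.26 with a pseudocount of 0.1 (limma adjusted p = 0.15) and −0.27 with limma-voom (adjusted p = 0.093).

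Other genes of the elastic fibre and of lysyl oxidase biology were counted from 4 lists holding 60 genes, of which 38 were tested. Among the 38, 9 rose and 0 fell, where 5.61% of all tested genes rose and 3.24% fell. The lists were chosen with earlier results of these data known, so this comparison cannot show an excess. The 9 became 5 without nattokinase replicate 3 and 5 with no filter on low values. Of 25 other microfibril and fibulin-related genes 12 were tested, 2 rose and 0 fell, with a median log2 fold change of 0.028. Both that rose encode latent TGF-beta binding proteins, which sit on microfibrils. Ltbp1 had 23.04, 22.3 and 22.9 FPKM in untreated cells and 30.7, 34.03 and 34.7 after nattokinase (log2 fold change 0.52, limma adjusted p = 0.00039). Ltbp2 had 1.25, 1.12 and 1.24 FPKM in untreated cells and 2.21, 2.50 and 2.70 after nattokinase (log2 fold change 0.65, limma adjusted p = 0.0012). As Ltbp2 is a low gene, its value was 0.97 with a pseudocount of 0.1 and 1.03 with limma-voom, and its ratio of mean FPKM was 2.05. In both genes every nattokinase library was above every control, and both kept their call in every alternative in which they were tested. Exons of Ltbp2 overlap those of D030025P21Rik, and strand use in counting is not stated. Adamtsl5 and the proteoglycan gene Bgn had log2 fold changes of 0.14 and 0.11 and were not called (limma adjusted p = 0.23 and 0.24). Mfap2 and Mfap4, which encode microfibril-associated proteins, had at most 1 and 2 reads in a library. Fbn2, the second fibrillin gene, was below the filter and so not tested, with 118 to 196 reads. Its level was lower in every nattokinase library, at 0.754 ± 0.139 FPKM in untreated cells and 0.537 ± 0.028 after nattokinase (SD, n = 3 each). Mfap5 and Thsd4, also not tested, were higher in every nattokinase library. Efemp2, which encodes fibulin-4, an adaptor that brings lysyl oxidase to elastin, had 55.1 ± 1.79 FPKM in untreated cells and 56.1 ± 1.94 after nattokinase.

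In the list of lysyl oxidase processing, copper supply and partners, 10 of 12 genes were tested, 2 rose and 0 fell, with a median log2 fold change of 0.0033. Bmp1, which encodes the protease that cuts the lysyl oxidase precursor, had 15.6, 15.7 and 15.8 FPKM in untreated cells and 17.1, 18.4 and 19.02 after nattokinase. Its log2 fold change was 0.20 (limma adjusted p = 0.039), and the call held in 5 of 14 alternatives. Those that ended it included protein-coding totals (adjusted p = 0.077) and leaving out any library except nattokinase replicate 1, where the adjusted p was 0.054 to 0.16. Pcolce2, an enhancer of procollagen processing, had 7.68, 8.46 and 8.15 FPKM in untreated cells and 11.9, 10.6 and 12.6 after nattokinase. Its log2 fold change was 0.48 (limma adjusted p = 0.0021), and the call held in 14 of 14 alternatives. Fn1, the fibronectin gene, had a log2 fold change of 0.26 and the periostin gene Postn −0.22, and neither was called (limma adjusted p = 0.058 and 0.19). The copper pump gene Atp7a, which supplies copper to secreted enzymes, had 5.38 ± 0.397 FPKM in untreated cells and 5.02 ± 0.556 after nattokinase (limma adjusted p = 0.58).

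Of 15 elastin-degrading proteases and inhibitors 8 were tested, 3 rose and 0 fell, with a median log2 fold change of 0.19. Mmp14, a membrane-bound metalloproteinase gene, rose from 59.6 ± 1.08 to 73.5 ± 3.44 FPKM (limma adjusted p = 0.0043). The metalloproteinase inhibitor gene Timp2 rose from 250.2 ± 7.11 to 306 ± 12.2 FPKM, and Cst3, which encodes the cathepsin inhibitor cystatin C, rose from 169 ± 18.8 to 216 ± 4.55 FPKM. Without nattokinase replicate 3 only 1 of the 3 was called, with adjusted p of 0.051 for Timp2 and 0.072 for Cst3. Cst3 also lost its call without control replicate 2 (0.053), without nattokinase replicate 2 (0.056) and with no filter (0.12), and kept it in 10 of 14 alternatives. Timp1 had a log2 fold change of 0.27 and was not called (limma adjusted p = 0.12). The gene for the macrophage elastase Mmp12 and the neutrophil elastase gene Elane had at most 2 and 1 reads in any library. Mmp9 had 4, 5 and 7 reads in untreated cells and 15, 31 and 13 after nattokinase. Its level, below the filter and so not tested, was 0.0945 ± 0.0251 and 0.312 ± 0.164 FPKM (SD, n = 3 each).

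All 8 genes of elastin receptors were tested, and 2 rose and 0 fell, with a median log2 fold change of 0.053. Ctsa, which encodes the protective protein of the elastin receptor complex, rose from 30.4 ± 0.777 to 38.8 ± 2.89 FPKM (limma adjusted p = 0.0058). Its exons overlap those of Pltp and Neurl2. The integrin gene Itgb5 rose from 40.2 ± 0.330 to 47.8 ± 2.43 FPKM (limma adjusted p = 0.013). Only 1 of these 2 was called without control replicate 2, nattokinase replicate 2 or nattokinase replicate 3, since Itgb5 then had an adjusted p of 0.052 to 0.066. With no filter on low values 0 of these genes was called (adjusted p = 0.063 for Ctsa and 0.076 for Itgb5). Lgals3 and Itgav had log2 fold changes of 0.23 and 0.087 and were not called (limma adjusted p = 0.052 and 0.36). Neu1 and Glb1, on the same list as Ctsa, had −0.017 and −0.067 and were not called (limma adjusted p = 0.91 and 0.52).

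**Figure D5:**
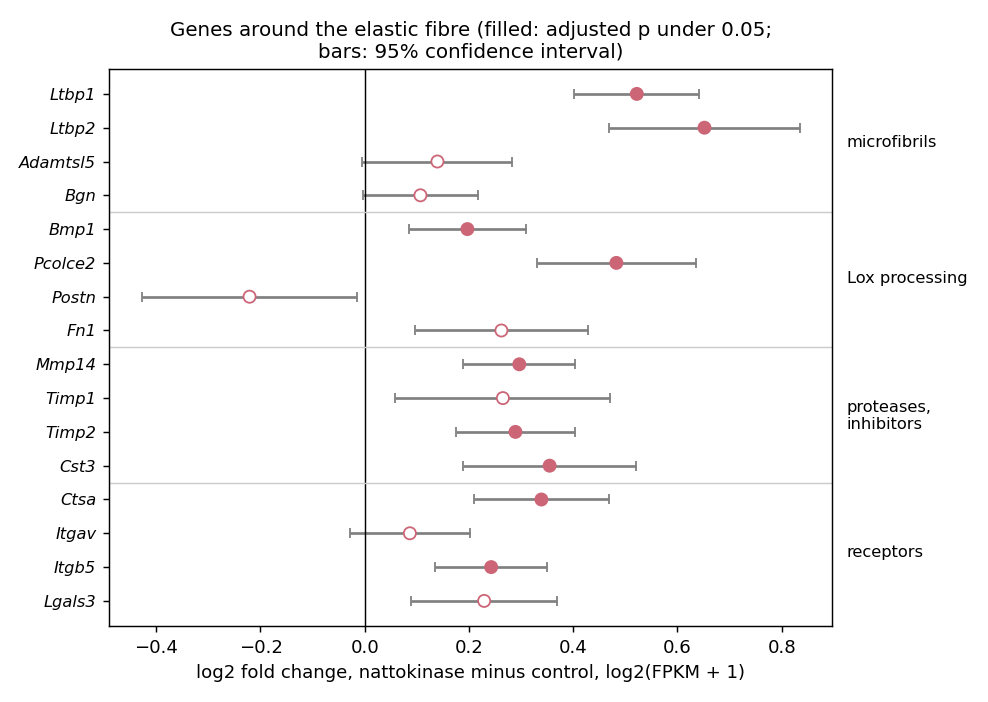
Log2 fold change on the log2(FPKM + 1) scale, nattokinase minus control, of the 16 genes taken from the 4 lists, with 95% confidence intervals from limma (3 libraries per group). Filled points have an adjusted p under 0.05, and all 9 of them lie above 0.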

How the data were processed

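RNA of 6 samples was sequenced, with the group and replicate number of each read from its title. The authors deposited 1 file of FPKM values per sample. Per the submitters' processing notes the tools, listed without a role, include HISAT2 2.1.0 and featureCounts 1.6.0, besides Trimmomatic 0.38, DESeq2 1.22.1 and quality-control programs. Those notes name the human build GRCh38, while all 55536 identifiers matched mouse GENCODE M21 (GRCm38). Each value times the merged exon length in GENCODE M21 came out as whole reads once divided by a constant of its library (to within 0.05 for 100% of values above 0), which gave the reads quoted. The sources used here state neither poly(A) selection nor strand use. The files held 0 columns of other samples.

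Genes that reached 1 FPKM in 3 or more libraries were tested as log2(FPKM + 1), a scale that understates the change of low genes, with limma 3.58.1 in R 4.3.3. The model had group only, moderated with a robust prior and a trend on intensity; tests were two-sided, with Benjamini-Hochberg adjustment at 0.05 over all genes tested. The code was checked on simulated counts, where false calls were somewhat above the nominal rate, so adjusted p close to 0.05 are less certain than they read. Replicates within a group correlated at 0.992 to 0.995. The members, lists and tests were chosen with earlier results of these data known. From each related list the 4 tested genes with the smallest p are named. Mfap2, Mfap4, Mfap5, Thsd4, Fbn2, Efemp2, Atp7a, Mmp9, Mmp12, Elane, Neu1 and Glb1 were named after their values were seen. Exons of Fbn1, Loxl3, Loxl2, Eln and Lox overlap other genes over 20.1%, 11.6%, 5.7%, 3.3% and 0.628% of their length. Figures were drawn with matplotlib 3.10.9. No table of protein sequences was used here.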

Additional observations from a re-analysis of the deposited data

How the results depend on the processing

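Lox was the member called higher, and this count of 1 fell to 0 with no filter on low values and with the replicate block, and ranged from 0 to 1 over the libraries left out in turn. The count of members called lower, 0, was 1 with limma-voom on recovered reads, where Fbn1 passed, and stayed 0 for each left-out library. Over all genes 612 were higher and 354 lower. With no filter 221 and 109 were called, and leaving out single libraries gave 330 to 726 higher and 193 to 481 lower. The count of higher genes moved by over 1.5 times without control replicate 2 (362), nattokinase replicate 2 (330) or nattokinase replicate 3 (342), and that of lower genes also without control replicate 3 (209). On protein-coding totals there were 478 higher and 497 lower genes, which puts 49% of the calls on the higher side in place of 63.4%. The cause of these shifts was not tested.

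Fbn1, Fbln2, Emilin1, Lox and Loxl2 kept their sign in 14 of 14 alternatives, Fbln5 in 13 and Loxl3 in 8. The same alternatives for the related lists were added after seeing the data. No effect shared by libraries with the same replicate number was seen. Deviations from the group means correlated at −0.089, −0.044 and −0.059 between same-numbered libraries, and at −0.043 to 0.094 between the others. These values cannot show whether same-numbered samples were handled together. With the replicate block 439 genes were higher and 249 lower, Lox had an adjusted p of 0.078 and Bmp1 one of 0.078. Depth limits Eln, Loxl1 and Loxl4, which had at most 3, 21 and 55 reads per library.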

Other observations

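The spread between replicates was set beside the counting error that each gene's reads give. For Loxl2, with 7572 reads on average, counting alone gives a coefficient of variation of 1.15%, and the replicates had 1.04% in the controls and 1.44% with nattokinase. Lox, with 19720 reads on average and a counting error of 0.712%, varied by 5.08% and 7.55%. Fbn1 varied by 5.97% in the controls and 2.89% with nattokinase, against 1.05% from counting. For Loxl4 counting alone gives 14.6%, beside 15.2% and 4.70% between replicates.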
